A study of Mus musculus with 17 samples.

Results

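Dentate granule cell markers are genes whose RNA is enriched in the granule neurons of the dentate gyrus relative to the other cells of the hippocampus. The 8 markers described here are Prox1, C1ql2, C1ql3, Dsp, Lct, Tdo2, Stxbp6 and Rfx3. They were taken by gene symbol from the 55385 genes of the tables of counts and RPKM (reads per kilobase and per megaread counted), each symbol had a row, and all 8 passed the filter on low counts with 18983 genes in all. Polyadenylated RNA was sequenced from the hippocampus of 17 adult mice, 1 library per mouse, with paired reads of 150 bases. The groups were wild-type C57BL/6J (WT, 6 mice, 3 female and 3 male, aged 17.1 to 18.0 weeks), Dp16 (6 mice, 3 female and 3 male, 17.1 to 18.0 weeks) and Dp16_2xIFNRs (5 mice, 3 female and 2 male, 17.7 to 18.0 weeks). Dp16 mice carry a duplication of the part of chromosome 16 that corresponds to human chromosome 21, and in Dp16_2xIFNRs mice, which carry it too, the labels call the interferon receptor dosage normalized. The labels give the strain for WT alone and do not name single receptor genes for the last group. Whole hippocampus holds many cell types, so fewer granule cells and less RNA per granule cell cannot be told apart here.

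Granule cells are the principal neurons of the dentate gyrus. They receive input from the entorhinal cortex and send mossy fibres to the hilus and to CA3 pyramidal neurons. Prox1 encodes a homeobox factor that sets and keeps granule cell identity, and Rfx3 encodes a winged-helix factor known for the control of cilium genes. C1ql2 and C1ql3 encode secreted proteins related to complement C1q that are released at mossy fibre synapses and bind neurexins and kainate receptors. Stxbp6 encodes amisyn, a syntaxin-binding protein that restrains vesicle fusion. Dsp encodes desmoplakin, which links desmosomes to intermediate filaments, Lct encodes lactase, and Tdo2 encodes tryptophan dioxygenase, which opens the kynurenine pathway.

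None of the 8 genes lies on chromosome 16. In the GRCm38 build, Prox1 spans chr1:190118035-190170714 on the minus strand, C1ql2 chr1:120340582-120343174 on the plus strand and Lct chr1:128284756-128328318 on the minus strand. C1ql3 spans chr2:13003457-13011806 and Tdo2 chr3:81957090-81976202, both on the minus strand. Stxbp6 spans chr12:44852484-45074709 (minus), Dsp chr13:38151294-38198577 (plus) and Rfx3 chr19:27761721-28011166 (minus). C1ql2, Lct and Tdo2 overlap no other annotated gene. Exons of Prox1 overlap the antisense genes Prox1os and Gm28172, exons of C1ql3 overlap Gm37824 and Gm37811, and an exon of Dsp overlaps Gm10129. The strand setting of the counting is not given in the sources used here, so those 3 values are less certain than the rest, while the genes that overlap Stxbp6 and Rfx3 on the other strand touch no exon of theirs.

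Of the markers, 4, C1ql2, Stxbp6, Tdo2 and Lct, are joined by 5 of the 6 correlated pairs described further on, and the 250 bases before their transcription starts are shown for that reason. The sequences are from RefSeq (GRCm38.p6), written 5′ to 3′ on the strand of the gene, and capitals mark a match to one of the motifs searched.
C1ql2, chr1:120340332-120340581, plus strand: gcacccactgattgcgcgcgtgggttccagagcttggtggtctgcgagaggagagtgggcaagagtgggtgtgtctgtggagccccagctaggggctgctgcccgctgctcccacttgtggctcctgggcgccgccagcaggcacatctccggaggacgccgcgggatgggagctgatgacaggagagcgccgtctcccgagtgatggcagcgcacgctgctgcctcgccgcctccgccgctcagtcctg
Stxbp6, chr12:45074484-45074733, minus strand: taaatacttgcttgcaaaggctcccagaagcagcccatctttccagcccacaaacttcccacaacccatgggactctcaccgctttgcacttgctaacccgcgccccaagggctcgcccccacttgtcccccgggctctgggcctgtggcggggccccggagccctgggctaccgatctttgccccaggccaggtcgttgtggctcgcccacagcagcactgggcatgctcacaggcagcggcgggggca
Tdo2, chr3:81975729-81975978, minus strand: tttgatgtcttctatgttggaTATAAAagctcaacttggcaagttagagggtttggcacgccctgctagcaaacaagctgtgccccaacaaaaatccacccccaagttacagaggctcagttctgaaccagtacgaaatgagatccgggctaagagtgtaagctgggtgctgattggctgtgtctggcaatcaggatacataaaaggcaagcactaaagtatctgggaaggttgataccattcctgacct
Lct, chr1:128328319-128328568, minus strand: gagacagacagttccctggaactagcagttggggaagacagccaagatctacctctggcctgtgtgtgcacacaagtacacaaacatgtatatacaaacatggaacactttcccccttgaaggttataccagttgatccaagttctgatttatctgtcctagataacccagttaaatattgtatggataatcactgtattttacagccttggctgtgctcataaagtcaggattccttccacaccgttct
The starts of C1ql2 and Stxbp6 differ in base composition from those of Tdo2 and Lct. In windows of 300 bases (250 before and 50 after the start), GC content was 67.3% for C1ql2 and 66.3% for Stxbp6, against 47.7% for Tdo2 and 44.7% for Lct, and the windows held 23, 19, 4 and 1 CpG. The other members had 57.3% to 73.0% over 5 windows, as RefSeq gives Prox1 a pair of starts.

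Motifs were searched on both strands of the 9 windows. The E-box CAGATG, which NeuroD factors can bind, occurred in 1 of the Prox1 windows and in 17.2% of all 32851 promoter windows of this length. TATAAA occurred in the same Prox1 window (as TTTATA, starting 34 bases before the start) and in Tdo2 (starting 229 bases before it), against 13.6% of all windows. GTTGCC, a core motif of RFX factors, occurred in the Rfx3 window alone, against 12.5% of all windows, and the E-box CAGCTG in none of the 9, against 16.3%. No motif was shared by the 4 windows shown, and a match is a description of letters, not a binding site.

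Depth was even, and 4 libraries stood apart in markers of neighbouring tissue. Total counts were 30.4 to 33.1 M (M, mega) per library, and the lowest count of any member in any library was 135. The summed level of 12 choroid plexus genes was 64.9 CPM (counts per megaread, scaled by TMM) in WT replicate 6, 72.9 in Dp16 replicate 6 and 110.5 in Dp16_2xIFNRs replicate 5, while the highest library of each group reached 6771, 5189 and 4436 CPM. The summed level of 8 thalamus genes was 540 CPM in WT replicate 4 and 206.9 in WT replicate 5. The highest was 180.2 in Dp16 and 146.8 in Dp16_2xIFNRs. None of these 20 genes had 0 counts in any library. WT replicate 5 was also high in the 5 tested genes of the C1ql and cerebellin family, with a summed level of 238.7 CPM. The WT median was 60.4 CPM, and the highest library was at 75.9 in Dp16 and 59.8 in Dp16_2xIFNRs. WT replicate 5 is not among the 4 libraries and was kept when they were left out. The fold changes against WT and the correlations between markers are given with and without those 4 libraries, while SDs and the most similar genes are from all 17.

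The levels of the 8 markers were compared per length, as deposited RPKM averaged over the 17 mice. C1ql3 was at 47.9 ± 4.76 (SD, n = 17), C1ql2 at 37.1 ± 6.66 and Stxbp6 at 24.3 ± 2.43. Rfx3 was at 11.7 ± 1.09 and Prox1 at 10.9 ± 1.28. Lct was at 5.24 ± 0.972, Dsp at 4.94 ± 0.786 and Tdo2 at 1.67 ± 0.363. The secreted synaptic proteins C1ql3 and C1ql2 thus stood above 93.3% and 91.0% of the tested genes, and the enzyme Tdo2 above 33.4%. Of neighbours in this order, C1ql3 and C1ql2 overlapped in range (C1ql3 was higher in 15 of 17 mice), as did Rfx3 and Prox1 (13 of 17) and Lct and Dsp (10 of 17). C1ql2 and Stxbp6 overlapped in range too, but C1ql2 was the higher in each of the 17 mice. Stxbp6 and Rfx3, Prox1 and Lct, and Dsp and Tdo2 did not overlap.

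**Figure D1:**
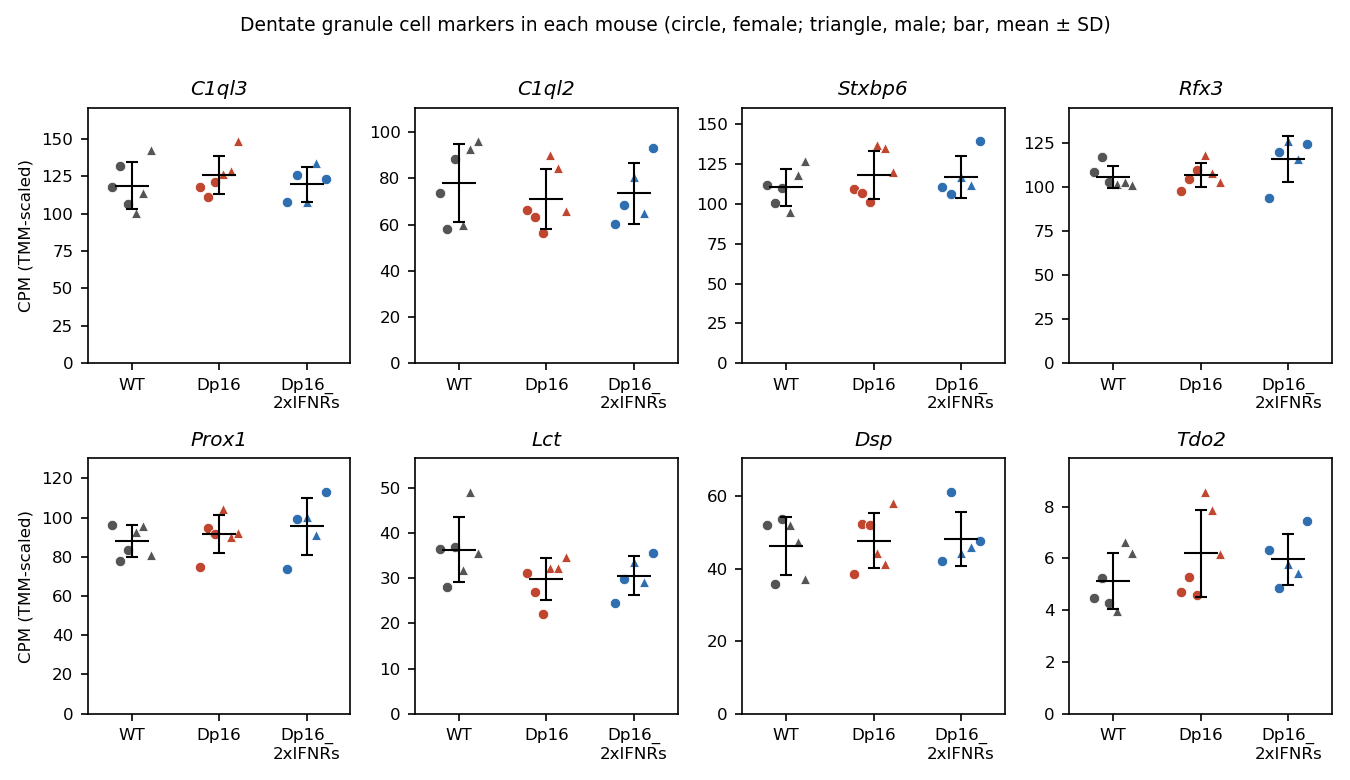
CPM of each marker (vertical axis, TMM-scaled, starting at 0) in each mouse of WT, Dp16 and Dp16_2xIFNRs. Circles are females, triangles males, and bars the mean ± SD, and the ranges of the 3 groups overlap for all 8 genes.

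The markers were then compared between genotypes, which asks whether the duplication, or the interferon receptor dosage within it, goes with a change in granule cell RNA. No marker passed the test in any comparison: 0 of 8 in Dp16 against WT, 0 of 8 in Dp16_2xIFNRs against WT and 0 of 8 in Dp16_2xIFNRs against Dp16 (edgeR quasi-likelihood test, genotype and sex as terms, Benjamini-Hochberg adjusted p under 0.05 over all tested genes). Over all tested genes, 0.537%, 0.980% and 0.0158% were called in these comparisons, so a count of 0 among 8 genes is near the background. At an unadjusted p under 0.05, 1 marker (Lct) passed in the first comparison and 0 in the others. Lct ranked 969 by p among the 18983 tested genes there, so at least that many genes passed at this limit. The count of 1 is thus not read as a result about the markers. DESeq2 and limma-voom also called 0 in each comparison. For no marker did all mice of one group lie above or below all mice of the other, against 0.990%, 2.17% and 0.616% of tested genes. The median log2 fold change of the 8 was 0.05, 0.07 and 0.03, beside -0.01, 0.00 and -0.01 over all tested genes. Without the 4 libraries that stood apart it was 0.00, 0.01 and -0.02. Both comparisons with WT share the same 6 WT mice. The p-values judge each difference against the spread between mice.

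Prox1, the factor of granule cell identity, was at 78.1 to 96.4 CPM in WT with a median of 88.2. It was at 74.6 to 105 CPM in Dp16 with a median of 92.1. In the 5 Dp16_2xIFNRs mice it was at 73.8, 91.2, 99.4, 100.5 and 113 CPM. Low and high mice occurred in each group, and the lowest and the highest of all were Dp16_2xIFNRs mice. The log2 fold change was 0.05 ± 0.09 (SE) in Dp16 and 0.13 ± 0.09 in Dp16_2xIFNRs against WT (edgeR adjusted p = 0.891 and 0.508), and 0.02 and 0.01 without the 4 libraries that stood apart. Without Dp16_2xIFNRs replicate 1, the lowest mouse, it was 0.20 in Dp16_2xIFNRs against WT (edgeR adjusted p = 0.172). Rfx3, the other transcription factor, was at 101 to 117 CPM in WT (median 103) and 97.4 to 118 in Dp16 (median 106). In Dp16_2xIFNRs it was at 93.6, 116, 119.5, 124 and 126 CPM. Of these 5 mice, 4 lay above the WT mean, and the fifth was the lowest mouse of the study for this gene. Its log2 fold change in Dp16_2xIFNRs was 0.14 ± 0.07 against WT and 0.12 ± 0.07 against Dp16 (edgeR adjusted p = 0.321 and 0.537), and 0.02 ± 0.07 in Dp16 against WT (adjusted p = 0.958). Without the 4 libraries it was 0.05 in Dp16_2xIFNRs and -0.02 in Dp16 against WT. Without Dp16_2xIFNRs replicate 1, the lowest mouse, it was 0.20 in Dp16_2xIFNRs against WT (edgeR adjusted p = 0.0592).

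Of the synaptic proteins, C1ql2 was at 58.0 to 96.2 CPM in WT with a median of 81.1. It was at 56.6 to 90.3 CPM in Dp16 with a median of 66.1, and at 60.3, 64.9, 68.4, 80.7 and 93.3 CPM in Dp16_2xIFNRs. Each group spanned nearly the same wide range, and 2 mice of each duplication group lay above the WT mean. The log2 fold change was -0.14 ± 0.14 in Dp16 and -0.06 ± 0.14 in Dp16_2xIFNRs against WT (edgeR adjusted p = 0.788 and 0.863). In Dp16 it was -0.23 without WT replicate 4, -0.07 without WT replicate 3 and -0.18 without the 4 libraries that stood apart. In Dp16_2xIFNRs it was -0.19 without replicate 5, 0.02 without replicate 4 and -0.27 without the 4 libraries (edgeR adjusted p = 0.221). C1ql3, its paralog, was at 101 to 143 CPM in WT (median 116), 112 to 149 in Dp16 (median 124) and 108 to 134 in Dp16_2xIFNRs (median 123). These ranges overlapped almost fully, and the log2 fold change was 0.08 ± 0.08 and 0.02 ± 0.09 against WT (edgeR adjusted p = 0.807 and 0.934), and 0.04 and 0.01 without the 4 libraries.

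Stxbp6 was at 94.8 to 127 CPM in WT with a median of 111. It was at 101 to 137 CPM in Dp16 with a median of 115. In Dp16_2xIFNRs it was at 106, 111, 112, 117 and 139 CPM. A single mouse, replicate 5, set the upper end of the last group, and its choroid plexus level is among the 3 low ones. The log2 fold change of Stxbp6 was 0.10 ± 0.08 in Dp16 and 0.10 ± 0.09 in Dp16_2xIFNRs against WT (edgeR adjusted p = 0.755 and 0.594). Without replicate 5 it was 0.01 in Dp16_2xIFNRs, and without the 4 libraries that stood apart it was -0.04 there and 0.06 in Dp16. Without WT replicate 4 it was 0.04 in Dp16.

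With all 17 libraries, the enzymes gave the largest estimates of the 8 against WT, in opposite directions; without the 4 libraries that stood apart, Tdo2 in Dp16_2xIFNRs was near 0. Lct was at 28.1 to 49.2 CPM in WT with a median of 36.0, at 22.1 to 34.7 in Dp16 with a median of 31.7, and at 24.5, 29.2, 29.9, 33.6 and 35.5 in Dp16_2xIFNRs. None of the 11 mice with the duplication reached the WT mean of 36.3 CPM, and WT replicate 5 was the highest mouse by a wide margin. The log2 fold change was -0.28 ± 0.11 in Dp16 against WT, with an unadjusted p of 0.0231 and an edgeR adjusted p of 0.451. An exact two-sided permutation test on log2 CPM gave p = 0.0844, where the smallest p these groups allow is 0.00216. In Dp16_2xIFNRs against WT the log2 fold change was -0.23 ± 0.12 (edgeR adjusted p = 0.350). Leaving out 1 library at a time gave -0.34 to -0.20 in Dp16 and -0.31 to -0.15 in Dp16_2xIFNRs. The estimates smallest in size, -0.20 and -0.15, came without WT replicate 5. Without the 4 libraries that stood apart, the log2 fold change of Lct was -0.42 in Dp16 and -0.43 in Dp16_2xIFNRs (edgeR adjusted p = 0.162 and 0.0861). That set keeps WT replicate 5. Tdo2 was at 3.97 to 6.62 CPM in WT (median 4.85), 4.57 to 8.57 in Dp16 (median 5.72) and 4.85 to 7.44 in Dp16_2xIFNRs (median 5.78). In all, 4 mice of each duplication group lay above the WT mean, and 2 Dp16 males, replicates 4 and 5, set the top of the range. The log2 fold change of Tdo2 was 0.26 ± 0.16 in Dp16 and 0.26 ± 0.17 in Dp16_2xIFNRs against WT (edgeR adjusted p = 0.635 and 0.425). Leaving out 1 library at a time gave 0.17 to 0.32 in Dp16 and 0.14 (without replicate 5) to 0.35 in Dp16_2xIFNRs, and leaving out the 4 gave 0.18 and 0.03.

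Dsp, the desmosomal linker, was at 35.7 to 53.6 CPM in WT (median 49.7) and 38.5 to 58.0 in Dp16 (median 48.2). In Dp16_2xIFNRs it was at 42.1, 44.5, 45.9, 47.6 and 61.3 CPM. Replicate 2 stood alone at the top of this group. The log2 fold change was 0.04 ± 0.12 in Dp16 and 0.05 ± 0.13 in Dp16_2xIFNRs against WT (edgeR adjusted p = 0.937 and 0.878). Without replicate 2 it was -0.04 in Dp16_2xIFNRs, without Dp16 replicate 6 it was -0.03 in Dp16, and without the 4 libraries it was -0.03 in Dp16 and 0.07 in Dp16_2xIFNRs.

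**Figure D2:**
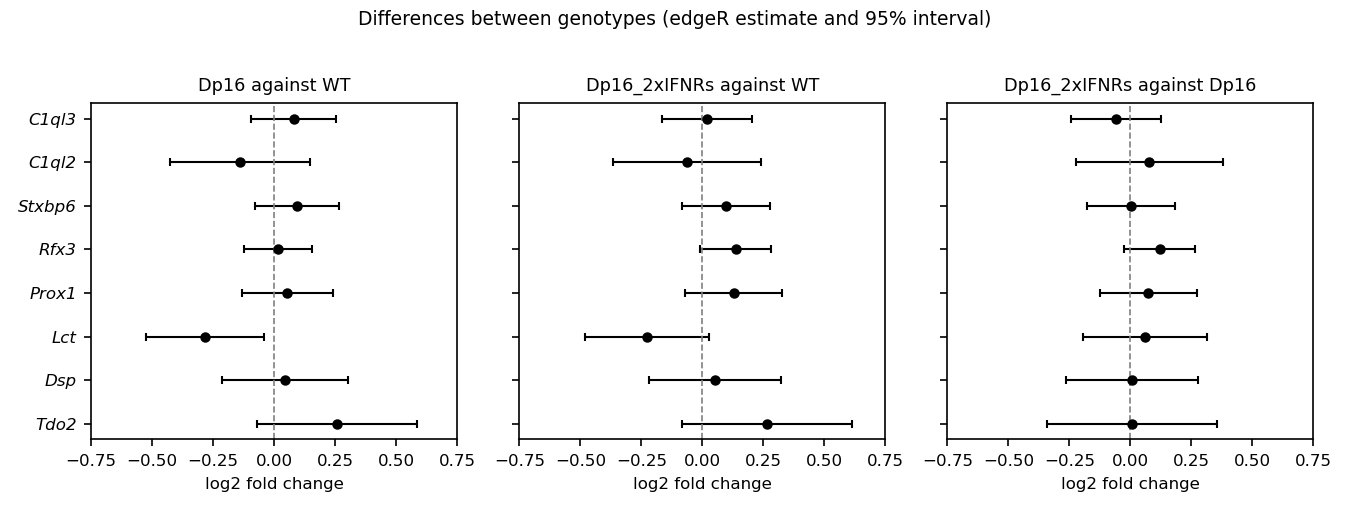
Log2 fold change (horizontal axis) of each marker with its 95% interval from edgeR in the 3 genotype comparisons, 1 panel each. The interval of Lct in Dp16 against WT is the only one of the 24 that lies to one side of 0, and that p does not pass the adjustment over all genes.

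The 95% intervals, not adjusted for the number of genes, give the range of differences each estimate allows. In Dp16 against WT the 95% interval of the log2 fold change was narrowest for Rfx3, at -0.12 to 0.15, and widest for Tdo2, at -0.07 to 0.59. Prox1 was bounded between -0.13 and 0.24, C1ql2 between -0.43 and 0.15, C1ql3 between -0.10 and 0.25, and Dsp between -0.21 and 0.30. Stxbp6 was bounded between -0.08 and 0.27 and Lct between -0.53 and -0.04. Between the duplication groups, the intervals ran from -0.18 to 0.18 for Stxbp6, the estimate nearest 0, and from -0.02 to 0.27 for Rfx3, the largest estimate.

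In the comparison of sexes, 7 of the 8 markers had lower estimates in females, and none passed the test (0 of 8 by edgeR, against 0.0685% of tested genes). The median log2 fold change, female against male, was -0.10 for the members and 0.00 over all tested genes. Tdo2 was at 5.23 ± 1.03 CPM in 9 females and 6.33 ± 1.43 in 8 males (SD), a log2 fold change of -0.28 ± 0.13 with an unadjusted p of 0.0471 and an edgeR adjusted p of 1.00. Lct was at 30.2 ± 5.34 CPM in females and 34.8 ± 6.12 in males, with a log2 fold change of -0.20 ± 0.10. No difference between the sexes in the effect of either duplication passed the test for any of the 8 markers (edgeR, interaction of genotype and sex).

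Other genes of the dentate gyrus gave the same count. Of 14 further genes enriched in granule cells, 0 were called in any genotype comparison, with median log2 fold changes of -0.05, -0.07 and 0.00. The 4 with the highest RPKM were Fam163b (44.2), Igfbp5 (33.3), Calb1 (30.3) and Bcl11b (19.5). Calb1, the calcium buffer calbindin, had a log2 fold change of -0.04 ± 0.09 in Dp16 and -0.13 ± 0.09 in Dp16_2xIFNRs against WT (edgeR adjusted p = 0.921 and 0.495). At an unadjusted edgeR p under 0.05, 3 of the 14 passed in Dp16 against WT (Plk5, Npnt and Neurod1), each with a lower estimate. Of the 14, 5 had a positive estimate. At least 969 of the 18983 tested genes passed at that limit too, and the count of 3 was not tested against that background. Chosen after its value was seen, Plk5 was the nearest to the threshold in Dp16 against WT, with -0.56 ± 0.14 (edgeR adjusted p = 0.106). In Dp16_2xIFNRs against WT, Plk5 was at -0.21 ± 0.15 (edgeR adjusted p = 0.481). The nearest to the threshold there was Npnt, at -0.25 ± 0.07 (edgeR adjusted p = 0.0812). In Dp16, Npnt was at -0.20 ± 0.06 (edgeR adjusted p = 0.290). Neurod1 was at -0.50 ± 0.19 in Dp16 and -0.43 ± 0.20 in Dp16_2xIFNRs against WT (edgeR adjusted p = 0.407 and 0.288). Npnt and Neurod1 were also chosen after their values were seen. Of the 10 genes of immature granule cells and progenitors, 9 were tested and 0 were called, with medians of -0.13, -0.23 and -0.11. Stmn1, a microtubule regulator of young neurons that other neurons also express, was at -0.41 ± 0.10 in Dp16_2xIFNRs against WT (edgeR adjusted p = 0.0561).

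The partners and relatives of the markers held 2 called genes. Over all tested genes, 0.537% were called in Dp16 against WT and 0.980% in Dp16_2xIFNRs against WT. Among 9 known or proposed C1ql partners (neurexins, kainate receptor subunits and the receptor Adgrb3), 1 rose in both duplication groups. It was Grik1, a kainate receptor subunit gene on chromosome 16 that belongs to the duplicated part, with a log2 fold change of 0.60 ± 0.10 in Dp16 and 0.59 ± 0.11 in Dp16_2xIFNRs (edgeR adjusted p = 0.00456 and 0.00746). The call was lost with the identifier series as a term in Dp16 (0.56, adjusted p = 0.0514) and with only the 2 groups fitted in Dp16_2xIFNRs (0.58, adjusted p = 0.0534), at folds of about the same size. Grik5, another kainate receptor subunit gene of this list, was at -0.01 ± 0.06 in Dp16. In the RFX family, 6 of 7 genes were tested and 1 was called: Rfx5, a factor known for the control of class II antigen presentation genes, fell by 0.50 in Dp16 and by 0.45 in Dp16_2xIFNRs on the log2 scale (SE 0.09 each, edgeR adjusted p = 0.0048 and 0.0157). In Dp16 the call of Rfx5 was lost with the identifier series as a term (-0.45, adjusted p = 0.0514) and without the 4 libraries that stood apart (-0.41, 0.0845). In Dp16_2xIFNRs it was lost without the 4 libraries (-0.34, adjusted p = 0.104), without the 3 low in choroid plexus genes (-0.43, 0.0707) and without Dp16_2xIFNRs replicate 4 (-0.44, 0.0597). It was also lost there with a term for each library's slope of log2 CPM deviations on gene length (-0.43, 0.0519). The same held in both fits of RPKM with limma (-0.43 and -0.34, 0.0551 and 0.0557).

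None of the other relatives was called in any genotype comparison. They were 5 tested genes of the C1ql and cerebellin family, 7 of the desmosome, 7 of the kynurenine pathway and 10 of vesicle fusion. Of the kynurenine genes, Kyat1 had the highest RPKM (4.36) and a log2 fold change of 0.13 ± 0.10 in Dp16 and 0.26 ± 0.11 in Dp16_2xIFNRs against WT (edgeR adjusted p = 0.743 and 0.241). Kmo, Kynu and Acmsd, further enzymes of that pathway, had 0 counts in at least 1 library. Of the desmosomal genes, Pkp4 was the highest (RPKM 65.7), at 0.01 ± 0.05 in Dp16, and Pkp2, another plakophilin gene, was at 0.04 ± 0.11. Snap25 and Vamp2, core genes of vesicle fusion, were at 0.02 ± 0.08 and 0.03 ± 0.06 in Dp16. In markers of the other hippocampal cell types, lists of 6 to 12 tested genes each, 1 gene was called. It was the astrocyte gene Fgfr3, a growth factor receptor. Fgfr3 fell by 0.26 in Dp16 and by 0.35 in Dp16_2xIFNRs against WT (edgeR adjusted p = 0.0329 and 0.00251). Over all tested genes 0.537% and 0.980% were called in these comparisons, so 1 call over these lists is near the background. The Dp16 call of Fgfr3 was lost on leaving out any 1 of WT replicates 1, 3, 4 and 6 or Dp16 replicates 1, 2, 3 and 5 (-0.27 to -0.23, adjusted p = 0.0555 to 0.0978). It was also lost with the identifier series (-0.26, 0.107) or each library's slope on gene length (-0.28, 0.0600) as a term. Without the 3 libraries low in choroid plexus genes it was lost too (-0.27, 0.0930). Without the 4 libraries that stood apart, Fgfr3 was at -0.22 and -0.28 (adjusted p = 0.222 and 0.0559).

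With genotype and sex removed, the markers varied between mice by different amounts. The SD of the log2 deviations was 0.27 for C1ql2, 0.24 for Dsp and 0.22 for Lct, against 0.12 for Rfx3 and 0.16 for both Stxbp6 and C1ql3. Among the 949 genes of like level, C1ql2 varied more than 97.4%, Dsp more than 95.2%, Lct more than 92.0% and Prox1 more than 90.7%. C1ql3 exceeded 88.4%, Stxbp6 85.7%, Tdo2 76.3% and Rfx3 69.1% of such genes. Each marker was thus more variable between mice than most genes of its level.

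Part of this variation was shared. Of the 28 pairs of markers, 23 had a positive Pearson r over the 17 mice, with a median of 0.227. Pairs of other genes were not counted in the same way. The counts of pairs here are thus not read as a trait particular to these markers. In all, 6 pairs passed by Pearson r and 3 by Spearman rho (permutation test with 100000 resamples, two-sided, Benjamini-Hochberg over the 28 pairs, adjusted p under 0.05). The test shuffled the 17 deviations as free values, while the genotype and sex fit left 13 residual degrees of freedom. Its p-values are therefore too small, and pairs near the threshold might not pass a test that allows for the fit. C1ql2 and Stxbp6 correlated most, with r = 0.888 and rho = 0.824 (permutation p adjusted 0.00028 and 0.00182). Their unadjusted permutation p for r, 1e-05, is the smallest these resamples can give. Tdo2 and Stxbp6 had r = 0.837 and rho = 0.828 (permutation p adjusted 0.00042 and 0.00182), and C1ql2 and Lct r = 0.725 and rho = 0.696 (0.0111 and 0.0222). Without the 2 mice farthest from the median of the first gene, r was 0.805, 0.751 and 0.604 in these 3 pairs. The other 3 pairs passed by r and not by rho: Prox1 and Rfx3 (r = 0.675, permutation p adjusted 0.0182), C1ql2 and Tdo2 (0.636, 0.0394), and Lct and Stxbp6 (0.611, 0.0430). Prox1 with Rfx3 and C1ql2 with Tdo2 fell to r = 0.368 and 0.396 without the 2 farthest mice. Leaving out the mice farthest from the median narrows the range of the first gene, which by itself can lower r. Whether these relations rest on those mice was not tested.

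**Figure D3:**
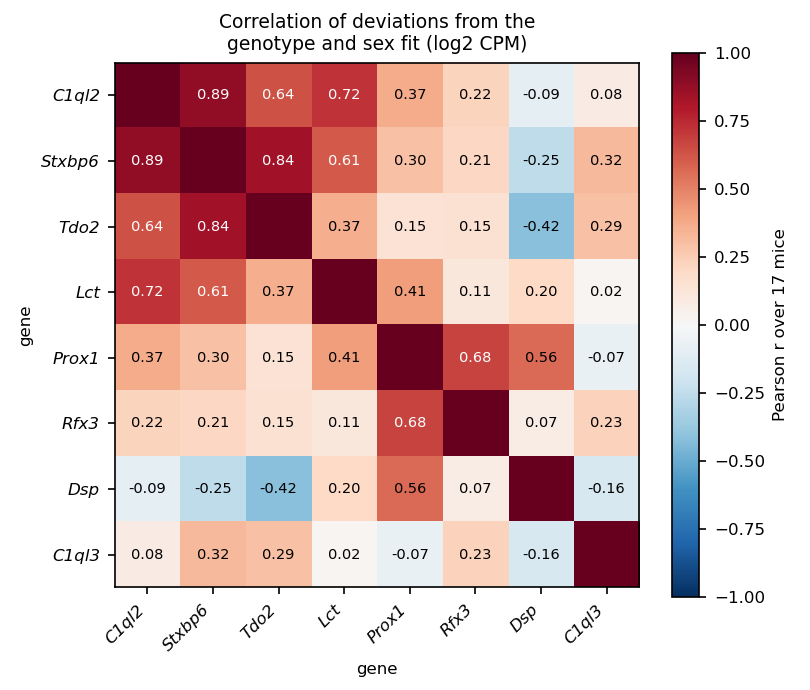
Pearson r between the markers over 17 mice, from log2 CPM deviations after genotype and sex were removed, as a grid with colour from -1 (blue) to 1 (red). C1ql2, Stxbp6, Tdo2 and Lct form a block of positive values at the upper left, while Dsp with Tdo2 (-0.421) and C1ql3 with C1ql2 (0.0786) are lower.

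Not all 8 markers moved together. The paralogs C1ql2 and C1ql3 had r = 0.0786, and Dsp had r = -0.421 with Tdo2 and -0.251 with Stxbp6. Against the mean of the other 7 markers, r was 0.725 for Stxbp6, 0.705 for C1ql2, 0.594 for Lct, 0.580 for Prox1, 0.475 for Tdo2 and 0.388 for Rfx3, but 0.155 for C1ql3 and -0.0185 for Dsp. C1ql3 had r = -0.639 with the choroid plexus level, the strongest of the 8, and Stxbp6 -0.501. The mean log2 CPM of the choroid plexus genes was 0.58, 0.88 and 1.44 in the 3 low libraries and at least 5.21 in the rest. These r values thus mainly set 3 mice against the others, and they are not given without the 3. The part of choroid plexus tissue in these correlations was not tested.

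Of the 4 libraries that stood apart, 2 lay at the ends of the scatter. In deviations from the genotype and sex fit, WT replicate 4 was the lowest mouse for C1ql2 (-0.45 on the log2 scale) and Stxbp6 (-0.27). Dp16_2xIFNRs replicate 5 was the highest for both (0.44 and 0.31). Without the 4, 17 of 28 pairs were positive with a median r of 0.0318, and 2 pairs passed: Prox1 with Dsp and C1ql2 with Lct. C1ql2 with Stxbp6 did not pass (permutation test, adjusted p = 0.0784). The p-values without the 4 libraries are too small for the same reason as those over 17 mice. Over those 13 mice r was 0.692 for C1ql2 and Stxbp6, 0.585 for Tdo2 and Stxbp6, 0.753 for C1ql2 and Lct, 0.609 for Prox1 and Rfx3, 0.373 for Lct and Stxbp6, and 0.0852 for C1ql2 and Tdo2. Prox1 and Dsp, at 0.564 over all mice, reached 0.819. The mouse identifiers fall into series by the leading digit of their second part, whose meaning the labels do not give. Within the one series with enough mice (10), r was 0.872 for C1ql2 and Stxbp6, 0.815 for Tdo2 and Stxbp6, 0.682 for C1ql2 and Lct, 0.310 for Prox1 and Rfx3, 0.533 for C1ql2 and Tdo2 and 0.475 for Lct and Stxbp6. The other series, of 5 and 2 mice, are too small.

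**Figure D4:**
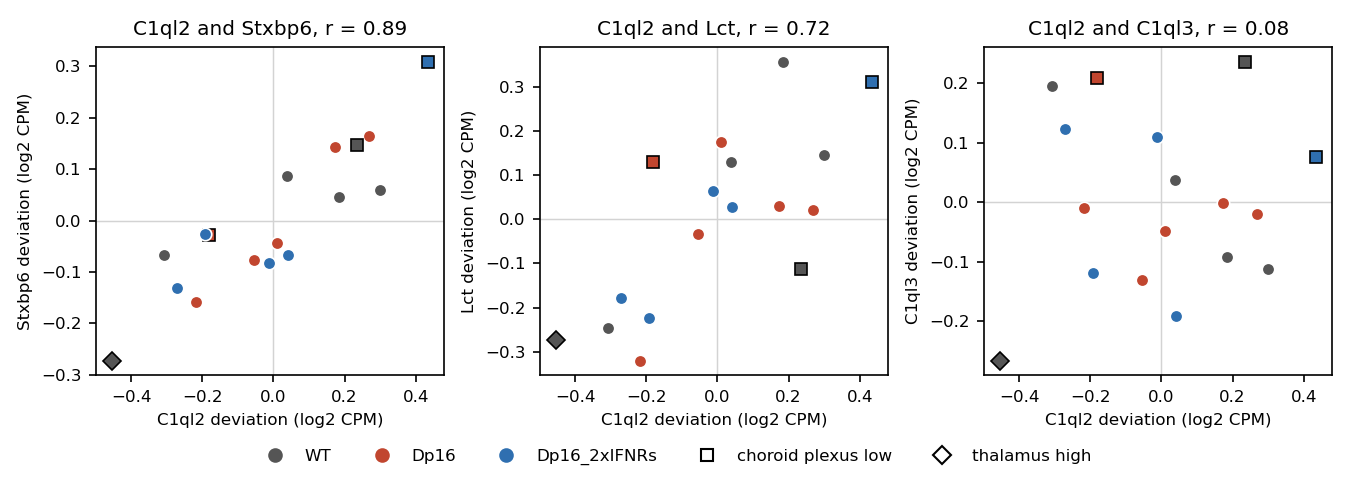
Deviation of C1ql2 (horizontal axis, log2 CPM after genotype and sex were removed) against those of Stxbp6, Lct and C1ql3 (vertical axes), 1 point per mouse, coloured by genotype, with squares for the 3 libraries low in choroid plexus genes and a diamond for WT replicate 4. Points rise together in the first 2 panels (r = 0.888 and 0.725) and scatter in the third (0.0786).

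Within single genotypes, as a description over 5 or 6 mice, 15 of 28 pairs were positive in WT (median r = 0.0633), 22 in Dp16 (0.442) and 23 in Dp16_2xIFNRs (0.410). The difference between genotypes was not tested.

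By mouse, the mean standardized deviation of the 8 markers ran from -1.01 in WT replicate 4 (2 of 8 markers above the fit) to 1.31 in Dp16_2xIFNRs replicate 5 (7 of 8). Dp16_2xIFNRs replicate 1 was also low, at -0.968 with 1 of 8 above, and Dp16 replicate 4 was high, at 0.703 with 6 of 8. The fit has a term for each genotype, so each genotype holds both high and low mice by construction. Set beside other gene lists over the 17 mice, as a description in which all lists share the libraries, the mean of the 14 further granule cell genes had r = 0.780 (rho = 0.843) with the markers' mean, and 11 of the 14 were positive. The 8 CA3 pyramidal genes had r = 0.730 (rho = 0.696), with Cpne4 at 0.745 and the peptide receptor gene Npy2r at 0.704. CA1 genes had r = 0.0144, and the list of immature granule cells -0.507 with all 8 genes of at least 1 CPM negative.

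Lists of tissue next to the hippocampus went the other way. Over 17 mice r was -0.456 for meningeal, -0.454 for thalamus and -0.426 for choroid plexus genes, and 0.419 for astrocyte genes. Without WT replicate 4 the thalamus value was -0.0674, and without the 3 libraries low in choroid plexus genes the choroid plexus value was -0.0868. Without all 4, the further granule cell genes were at 0.680 and CA3 genes at 0.734, while CA1 genes were at -0.536. Microglia genes were at 0.348 over 17 mice, with all 8 positive, and 0.146 without the 4. Within the identifier series of 10 mice, microglia genes were at 0.738, astrocyte genes at 0.709 and oligodendrocyte genes at 0.697, beside 0.762 for further granule cell genes and 0.946 for CA3 genes. The difference between lists was not tested.

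**Figure D5:**
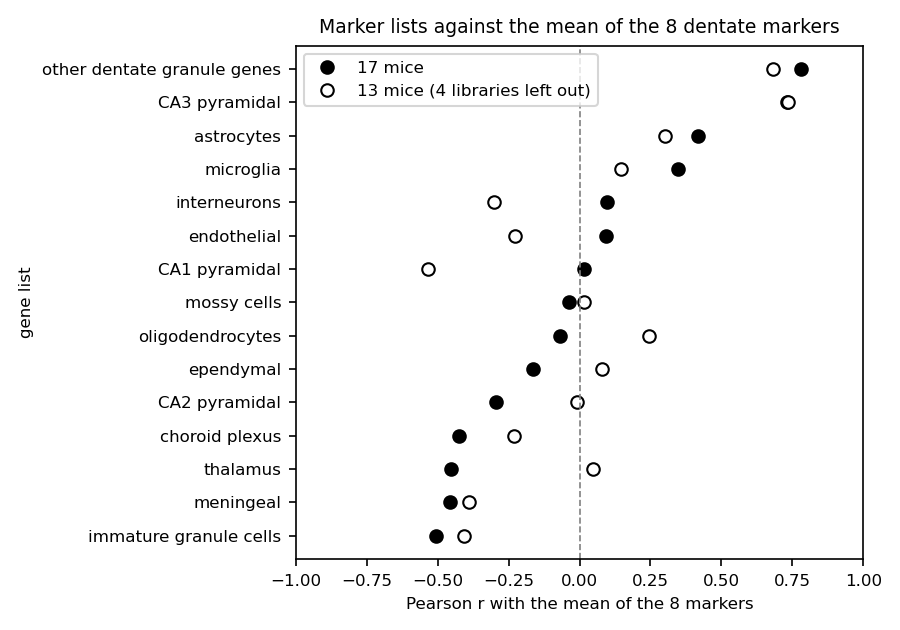
Pearson r (horizontal axis) between the mean of the 8 markers and the mean of each cell type list (rows), over 17 mice (filled points) and over 13 mice without the 4 libraries that stood apart (open points). Further granule cell genes and CA3 genes are high in both (0.780 and 0.730, then 0.680 and 0.734), while thalamus and CA1 genes differ between the 2 sets of mice.

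Of 15608 genes at a mean of 1 CPM or more, those with the pattern most like the mean of the 8 markers over the 17 mice were named by r. Across these genes the median r was 0.00409, with 5% below -0.457 and 5% above 0.503, and 17 exceeded 0.8. The first 10 with a gene name were Zfpm2 (0.884), Atf6 (0.872), Cyfip1 (0.838), Sema5a (0.837), Emx2os (0.834), Camta2 (0.833), Cplx2 (0.831), Klhl2 (0.826), Lpl (0.814) and Camk2b (0.811). Cplx2 encodes a complexin of the vesicle release machinery, Camk2b a subunit of a synaptic calcium-dependent kinase, and Lpl lipoprotein lipase. The 5 lowest with a gene name were Prr13 (-0.816), Tmem91 (-0.816), Plekha7 (-0.809), Lmod1 (-0.801) and Stat6 (-0.797). None of these 15 genes was called in a genotype comparison, and they were picked by r, so these values carry no test.

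By single marker, the most similar genes differed. Olfm1, a secreted neuronal glycoprotein gene, had r = 0.950 with Stxbp6, followed by Fgf13 (0.921) and Limd2 (0.920). Rbfox3, the gene of the neuronal marker NeuN, had r = 0.914 with C1ql2, followed by Fam163b (0.902) and Slc14a1 (0.889). For Tdo2 they were Btbd3 (0.913), Elovl2 (0.902) and Ccdc38 (0.878), and for Lct Ccng2 (0.847), Med27 (0.838) and Slc8a2 (0.822). No gene recurred between these 4 lists, although the markers correlate. For Prox1 they were Limch1 (0.877), Gpc1 (0.867) and Tex52 (0.851), and for Rfx3 Arhgef11 (0.881), Chd2 (0.836) and Zbtb20 (0.823), a zinc finger factor gene of hippocampal neurons. C1ql3 was nearest to Arhgap20 (0.917), Mast2 (0.859) and the active zone gene Rims1 (0.845), and Dsp to Spsb1 (0.914), Mknk2 (0.901) and Ankrd13a (0.898).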

How the data were processed

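Hippocampal polyadenylated RNA of 17 mice was sequenced, 1 strand-specific library per mouse. HISAT2 2.1.0, HTSeq 0.6.1, SAMtools 1.5, FastQC 0.11.5 and bcl2fastq are named, with the build GRCm38, per the submitters' processing notes. The files the authors deposited hold raw counts and RPKM of each gene for each library. For each gene, counts and RPKM gave 1 implied length over all libraries (largest relative spread 6.41e-15). Strand setting and length definition are not given in the sources used here.

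Counts were tested here with edgeR 4.0.16 (R 4.3.3): TMM scaling, filterByExpr with a minimum count of 10, quasi-likelihood test, terms for genotype and sex, all 17 libraries, Benjamini-Hochberg over 18983 genes, threshold 0.05. The common biological coefficient of variation was 14.1%. Deviations from the genotype and sex fit (limma 3.58.1, log2 CPM, prior count 2) gave the correlations. DESeq2 1.42.0 and limma were alternatives. Scripts were tested on simulated data. The 8 members and the 21 other gene lists were chosen with earlier results of these data known. Named genes were all members, each list gene called and otherwise up to 4 of a list by RPKM. The 10 most and 5 least similar to the members' mean and the 3 most similar to each member were also named. Plk5, Npnt and Neurod1 were added after their values were seen. Names of the deposited tables give GENCODE vM24; gene positions here are from vM21, promoters from RefSeq.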

Additional observations from a re-analysis of the deposited data

Results flagged for a closer look

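Dsp in Dp16_2xIFNRs replicate 2 was at 61.3 CPM, while the other 4 mice of that group were at 42.1 to 47.6 CPM. Its gap to the nearest mouse was 0.714 of the group's range, above the limit of Dixon's test for 5 samples. It was the only one of 24 checks (8 markers in 3 groups) with such a sample, and chance alone gives about 1 in 20.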

How the results depend on the processing

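The count of markers called stayed at 0 in each comparison under each alternative tried: 34 between genotypes and 32 between sexes, where the fits without sex and of only 2 groups do not apply. These were 17 that leave out 1 library each, 15 other planned ones (scaling, DESeq2, limma, filters, covariates, blocks, deposited RPKM with limma) and 2 added after seeing the data, which leave out the 3 libraries low in choroid plexus genes or those 3 and WT replicate 4. The count of markers whose groups do not overlap was 0 with RPKM as with CPM. The count of correlated pairs, 6, was 3 by Spearman rho and 2 without the 2 farthest mice. It was 2 without the 4 libraries that stood apart, 4 without the 3 and 4 to 7 on leaving out 1 mouse. The cause was not tested, and each of these counts rests on the permutation p-values that are too small. Mice with the same sample number were not paired: their deviations over genes had a mean r of 0.0772 over 16 pairs (-0.216 to 0.471), against -0.0141 over 80 other pairs. With the replicate block, 0 markers were called and the median log2 fold changes were 0.04, 0.08 and 0.04 between genotypes. The median between sexes was 0.00 with the block, in which sample numbers 1 to 3 are females and 4 to 6 males in WT and Dp16, and Fgfr3 in Dp16 against WT was no longer called (edgeR adjusted p = 0.0538). The printed intervals are not adjusted for the number of genes, so they are narrower than what a call needs.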
